A study of Homo sapiens with 6 samples.

Results

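The genes described here are the 10 enzymes of serine synthesis and of the folate cycle that carry its one-carbon units, taken by symbol from a table of 20348 genes measured in MV4-11 cells. MV4-11 is an established human acute myeloid leukemia (AML) cell line with a KMT2A fusion and a FLT3 internal tandem duplication. The 3 Control samples came from untreated cells (a blank control), and the other 3 from cells given 1 μM WNK463, which inhibits kinases of the WNK family, for 48 h. No solvent is named for the Control, the data cover a single line, dose and time point, and nothing says whether the replicates were separate cultures, so the p-values measure only the spread between these samples. The members are a list of symbols drawn up with earlier results of these data known, and all 10 were found once each and passed the filter on low counts that left 11973 genes for testing.

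Cells make serine from the glycolytic intermediate phosphoglycerate in a short pathway. *PHGDH* oxidizes it, *PSAT1* adds an amino group and *PSPH* removes the phosphate. Serine then gives a carbon to folate, becoming glycine, and the folate-bound carbon is used to build thymidylate and purines and to remake methionine. The folate reactions run in parallel in the cytosol and in the mitochondria with different enzymes, and in proliferating cells the mitochondrial arm usually turns serine into formate, which the cytosolic arm takes up again. In the cytosol *SHMT1* transfers the carbon and the trifunctional enzyme *MTHFD1* interconverts the folate forms. In mitochondria *SHMT2* does the transfer, *MTHFD2* and *MTHFD2L* are alternative dehydrogenases, *MTHFD1L* releases formate and *ALDH1L2* oxidizes the carbon to carbon dioxide. *PHGDH*, *PSAT1*, *SHMT2*, *MTHFD2* and *ALDH1L2* are known targets of the stress-responsive transcription factor ATF4.

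All 3 serine synthesis genes and both cytosolic folate genes were lower after WNK463, while the 5 mitochondrial genes went in different ways. There, *ALDH1L2* and, slightly, *SHMT2* were lower, *MTHFD2* and *MTHFD2L* were higher, and *MTHFD1L* did not pass. A gene passed at an adjusted p below 0.05 in edgeR's quasi-likelihood test, with counts scaled by the TMM method. By this rule 7 of the 10 members were lower, where 35.3% of all tested genes were, and 2 were higher, where 35.5% were. Among members, 5 were lower with a log2 fold change of -1 or less, against 5.55% of all tested genes, and 1 was higher by 1 or more, against 9.62%. The median log2 fold change was -1.33 for serine synthesis, -1.24 for the cytosolic arm and -0.12 for the mitochondrial arm, compared with 0.02 over all tested genes. The 3 Control and 3 WNK463 values did not overlap in 9 members, as in 73.5% of all tested genes.

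Total counts lay between 14915745 and 17411780 per sample. Using total counts for the scaling raised the log2 fold changes by a median of 0.15, and 26.1% of genes were then lower and 46.1% higher. Levels below are counts scaled to library size (CPM) on the TMM scale unless TPM, the length-corrected unit, is named, and the log2 fold changes are WNK463 minus Control with a standard error (SE) and, where given, a 95% confidence interval. Of 10 markers of myeloid cells and of this line, *CD33*, *FLT3*, *MEIS1*, *HOXA9*, *SPI1*, *CEBPA* and *CSF1R* had at least 801 counts in each sample, and the monocyte marker *CD14* had 10 or fewer. Among the 9 tested, 4 were lower and 4 higher, beside 35.3% and 35.5% of all tested genes. The granule protein genes *LYZ* and *MPO* had log2 fold changes of -2.22 and -2.50, with *MPO* at 14 to 31 counts after WNK463, and *CSF1R* rose by 0.97. The part of these shifts in the results was not tested. Of 10 markers of lymphoid, erythroid, epithelial, stromal and endothelial cells, 6 were at 0 in every Control sample and 5 in every WNK463 sample, and their summed level was 39.7 to 42.3 TPM in Control and 78.2 to 82.1 TPM with WNK463. Most of this came from *PECAM1*, which myeloid cells also express, with 1332 to 1724 counts in Control and 2637 to 2922 with WNK463. Its part in the results was not tested. In bulk RNA, fewer cells of a type and less RNA per cell cannot be told apart.

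The promoter sequences below show what lies upstream of members that moved in different directions. RefSeq (GRCh38.p14) gave upstream sequence for 7 of the 10 members, and the stretches printed start 250 bases before the annotated start and stop before the first GENCODE 29 exon of the gene. *PSAT1* and *SHMT1* were lower and *MTHFD2* was higher. Capitals mark CCAAT, the core of the element bound by NF-Y, on either strand (ATTGG on the other). The stretches are chr9:78296875-78297124 on the plus strand, chr17:18363564-18363800 on the minus strand and chr2:74198365-74198561 on the plus strand, each written along its gene.
PSAT1: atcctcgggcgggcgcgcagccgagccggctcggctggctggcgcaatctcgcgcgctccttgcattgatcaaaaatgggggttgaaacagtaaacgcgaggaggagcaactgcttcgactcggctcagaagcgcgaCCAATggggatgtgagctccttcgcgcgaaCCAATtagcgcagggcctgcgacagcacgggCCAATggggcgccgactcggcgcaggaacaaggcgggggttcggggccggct
SHMT1: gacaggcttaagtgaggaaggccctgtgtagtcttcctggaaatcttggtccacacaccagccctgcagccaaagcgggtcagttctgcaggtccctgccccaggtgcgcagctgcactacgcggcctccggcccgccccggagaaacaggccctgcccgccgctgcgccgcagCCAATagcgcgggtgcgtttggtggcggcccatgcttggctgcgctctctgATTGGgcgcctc
MTHFD2: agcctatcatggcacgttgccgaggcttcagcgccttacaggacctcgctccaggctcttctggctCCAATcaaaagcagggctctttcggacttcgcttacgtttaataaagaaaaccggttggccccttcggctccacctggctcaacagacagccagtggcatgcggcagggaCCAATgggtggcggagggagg

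Over the 250 upstream bases and both strands, CCAAT was found in 6 of the 7 members with an entry, namely *PHGDH*, *PSAT1*, *SHMT1*, *MTHFD1*, *MTHFD2* and *MTHFD1L*, and in 32.0% of 35116 promoters. A member counted if any of its entries matched, and *MTHFD1L* had 4 entries and *MTHFD2L* 2. The shares of promoters given here count each entry by itself, so they are not the same measure as the counts of members. *PSAT1* held 3 copies and *SHMT1* and *MTHFD2* held 2 each. The motif was thus present both upstream of members that were lower and upstream of *MTHFD2*, which was higher. The E-box CACGTG was found for *MTHFD1* and *MTHFD1L* and in 6.34% of promoters. TGATGNAA, the letters searched for the C/EBP-ATF element that ATF4 binds, was found, among these members, for *MTHFD1L* alone and in 3.14% of promoters. *PSPH*, *SHMT2* and *ALDH1L2* had no entry and were not searched, and sites beyond the 250 bases were not searched for any gene. The *MTHFD1L* match is shown with its flanks, in capitals, because the gene carrying it did not pass the test. The printed stretch is chr6:150866347-150866374 on the plus strand, upstream of 2 of the 4 RefSeq starts of the gene but inside its GENCODE 29 span given below. The RefSeq start of *PHGDH* used in the search also lies inside the span of that gene.
MTHFD1L: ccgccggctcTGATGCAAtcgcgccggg

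*PHGDH* (ENSG00000092621, chromosome 1 from 119648411 to 119744226, plus strand, GENCODE 29 on GRCh38) encodes phosphoglycerate dehydrogenase, which commits carbon to serine. Its normalized counts were 16.4, 13.9 and 13.1 CPM in the Control samples and 3.50, 3.55 and 3.32 CPM with WNK463. Every WNK463 sample lay well below every Control sample. Mean levels were 14.5 ± 1.75 CPM in Control and 3.46 ± 0.12 CPM with WNK463 (SD, n = 3 per group), which is 4.18-fold lower. This gave a log2 fold change of -2.06 (SE 0.14, interval -2.36 to -1.76, adjusted p = 5.9e-10 from edgeR), and 0.677% of all tested genes had a value as low or lower. The gene rested on 52 to 270 counts per sample.

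*PSAT1* (ENSG00000135069, chromosome 9 from 78297143 to 78330093, plus strand) encodes phosphoserine aminotransferase, the next enzyme. It had 140.4, 143 and 144 CPM in Control and 58.6, 53.4 and 57.4 CPM with WNK463. The Control samples were nearly equal and the WNK463 samples all fell under them. The fold change on the log2 scale was -1.33 (SE 0.05, adjusted p = 6.0e-13 from edgeR), so that 39.6% of the Control level was left.

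*PSPH* (ENSG00000146733, chromosome 7 from 56011051 to 56051604, minus strand) encodes phosphoserine phosphatase, the last and irreversible step. Its values were 17.2, 16.0 and 17.3 CPM in Control and 12.9, 14.1 and 13.8 CPM with WNK463. The groups did not overlap, but the gap between them was small. A log2 fold change of -0.31 resulted (SE 0.10, interval -0.51 to -0.11, adjusted p = 0.0085 from edgeR). This call depended on the scaling, since with total counts the value was -0.16 (adjusted p = 0.15) and with limma on log2(TPM + 1) it was -0.15 (adjusted p = 0.14).

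The transcripts of the serine synthesis enzymes therefore differed between the groups by unequal amounts, and the fall of *PSPH* depended on the scaling. The TPM ratio of *PHGDH* to *PSPH* within a sample, which does not depend on the scaling, was 0.731, 0.715 and 0.617 in Control and 0.229, 0.205 and 0.194 with WNK463. The log2 ratio differed by -1.72 between groups (exact two-sided permutation test, p = 0.10, adjusted p = 0.10 over the 5 ratios compared). A p of 0.10 is the smallest that 3 samples against 3 allow, so no ratio could pass 0.05.

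**Figure D1:**
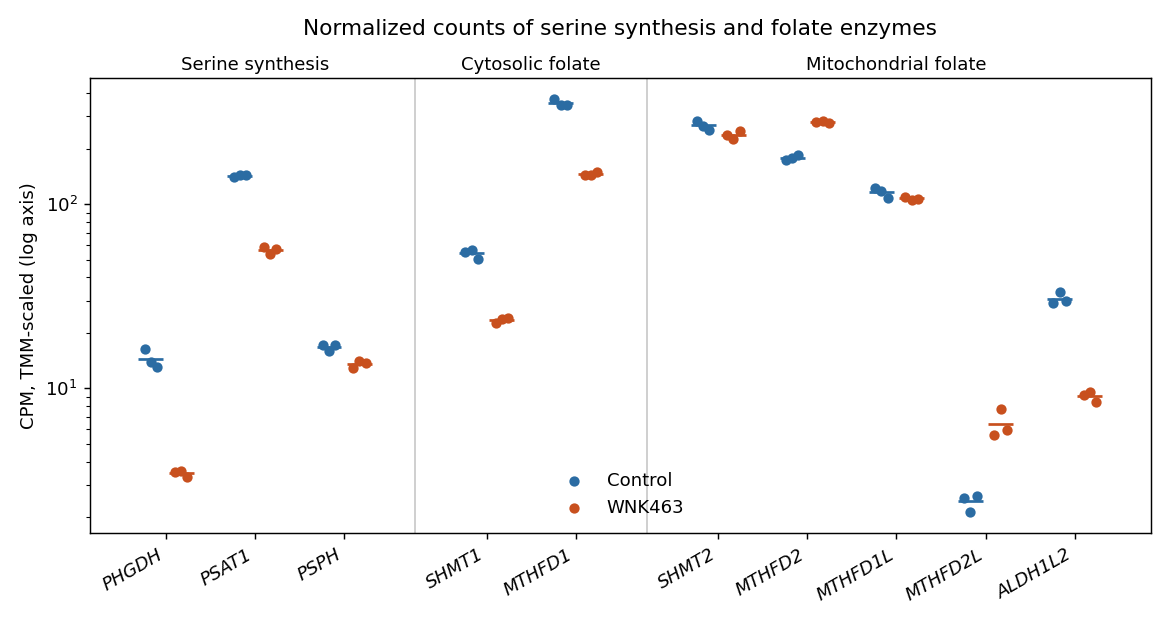
Each point is the normalized count of a gene in a single sample (CPM, log axis), with Control in blue and WNK463 in orange, and the bars are group means of 3 samples. The serine synthesis and cytosolic genes and *ALDH1L2* are lower in every WNK463 sample, *MTHFD2* and *MTHFD2L* are higher, and the groups overlap in *MTHFD1L*.

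In the cytosolic arm, *SHMT1* (ENSG00000176974, chromosome 17 from 18327860 to 18363563, minus strand) encodes the cytosolic serine hydroxymethyltransferase. It had 55.2, 56.2 and 50.6 CPM in Control and 22.8, 23.8 and 24.1 CPM with WNK463. All treated samples were at less than the lowest Control value, with a log2 fold change of -1.20 (SE 0.07, adjusted p = 7.7e-11 from edgeR).

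*MTHFD1* (ENSG00000100714, chromosome 14 from 64388031 to 64463457, plus strand) encodes the cytosolic enzyme that interconverts formyl-, methenyl- and methylene-tetrahydrofolate. It had 372, 347 and 347 CPM in Control and 145, 143 and 150 CPM with WNK463. The replicates of each group lay close together and far from the other group. The difference was -1.28 on the log2 scale (SE 0.05, interval -1.38 to -1.18, adjusted p = 2.3e-13 from edgeR), and 41.1% of the Control level was left. By p-value *MTHFD1* ranked 66 of all tested genes, ahead of *PSAT1* at 102 and *ALDH1L2* at 319.

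In the mitochondrial arm, *SHMT2* (ENSG00000182199, chromosome 12 from 57229327 to 57234935, plus strand) encodes the mitochondrial hydroxymethyltransferase. Its values were 283, 265 and 254 CPM in Control and 237, 224 and 250.4 CPM with WNK463. The highest WNK463 sample came within a few CPM of the lowest Control sample. Its log2 fold change was -0.17 (SE 0.05, adjusted p = 0.0077 from edgeR), and it was -0.021 with total counts (adjusted p = 0.72) and -0.09 with limma on log2(TPM + 1) (adjusted p = 0.16), where it did not pass.

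*MTHFD2* (ENSG00000065911, chromosome 2 from 74198562 to 74217565, plus strand) encodes the mitochondrial dehydrogenase and cyclohydrolase that is typical of embryonic and tumor cells. It had 175, 179 and 184 CPM in Control and 278, 283 and 275 CPM with WNK463. Every WNK463 value exceeded every Control value, and the spread within groups was small. The level rose 1.56-fold, a log2 fold change of 0.64 (SE 0.05, interval 0.54 to 0.73, adjusted p = 9.0e-10 from edgeR), with 17% of all tested genes at or above this value. It was 0.79 with total counts.

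*MTHFD2L* (ENSG00000163738, chromosome 4 from 74114174 to 74303099, plus strand) encodes a related dehydrogenase found in adult tissues. It was the scarcest member in Control, with 42, 31 and 43 counts, or 2.56, 2.13 and 2.62 CPM, and had 93, 133 and 93 counts, or 5.62, 7.73 and 5.94 CPM, with WNK463. WNK463 replicate 2 was the highest, and all 3 treated samples were above Control. The log2 fold change was 1.40 (SE 0.20, adjusted p = 7.5e-06 from edgeR), the least precise of the members, and it ranged from 1.24 to 1.48 when any 1 sample was omitted.

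*MTHFD1L* (ENSG00000120254, chromosome 6 from 150865549 to 151101887, plus strand) encodes the mitochondrial formyl-tetrahydrofolate synthetase. It had 122, 118 and 109 CPM in Control and 109, 106 and 107 CPM with WNK463. The lowest Control sample, replicate 3, lay among the treated samples. Its log2 fold change was -0.12 (SE 0.05, interval -0.23 to -0.00075, adjusted p = 0.067 from edgeR). Without Control replicate 3 it was -0.18 and passed (adjusted p = 0.0095 from edgeR), and with total counts it was 0.036 (adjusted p = 0.56), so neither its direction nor its call was stable.

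*ALDH1L2* (ENSG00000136010, chromosome 12 from 105019784 to 105084577, minus strand) encodes the mitochondrial formyl-tetrahydrofolate dehydrogenase. It had 29.2, 33.2 and 29.9 CPM in Control and 9.18, 9.59 and 8.43 CPM with WNK463. The groups were far apart, with 29.6% of the Control level left. The log2 fold change was -1.76 (SE 0.10, interval -1.96 to -1.56, adjusted p = 2.7e-11 from edgeR). Its cytosolic counterpart *ALDH1L1* had at most 1 count in any sample.

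**Figure D2:**
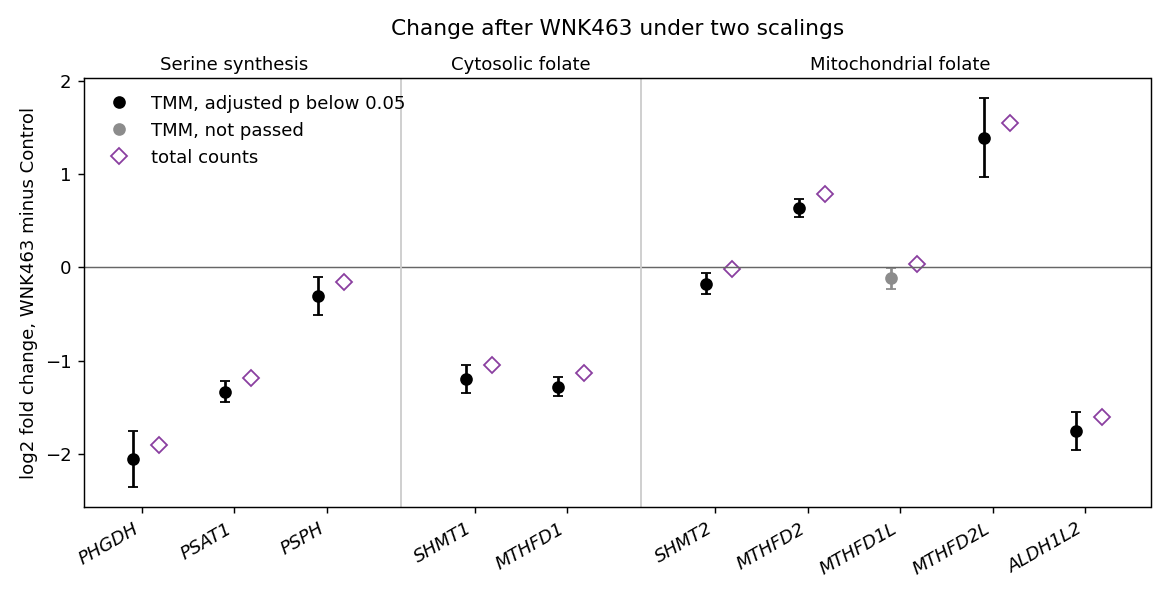
Circles give the log2 fold change (WNK463 minus Control) of each gene with TMM scaling and its 95% confidence interval, and open diamonds give the value with scaling by total counts. *PHGDH*, *ALDH1L2*, *PSAT1*, *MTHFD1* and *SHMT1* lie at or below -1 on both scales, *MTHFD2* and *MTHFD2L* lie above 0 on both, and *SHMT2* and *MTHFD1L* lie within 0.2 of 0.

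Levels of different genes were compared in TPM, which corrects for length. In Control the order from high to low was *SHMT2* (261 TPM), *MTHFD1* (210.3 TPM), *MTHFD2* (168 TPM), *PSAT1* (123 TPM), *MTHFD1L* (69.2 TPM), *SHMT1* (42.4 TPM), *PSPH* (21.2 TPM), *PHGDH* (14.6 TPM), *ALDH1L2* (7.88 TPM) and *MTHFD2L* (1.91 TPM). With WNK463, *MTHFD2* came first at 285 ± 7.38 TPM, ahead of *SHMT2* at 246 ± 13.0 TPM (SD, n = 3 each). *MTHFD1L* at 71.4 TPM then stood above *PSAT1* at 58.2 TPM, and *MTHFD2L* at 5.88 TPM stood above *PHGDH* at 3.97 TPM. In neither group did the 3 values of any gene overlap those of its neighbour in the order. The closest neighbours were *SHMT1* and *PSPH* with WNK463, at 21.2 ± 0.837 and 19.0 ± 1.15 TPM.

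Summed over genes, the serine synthesis transcripts were at 159 ± 0.208 TPM in Control and 81.2 ± 1.56 TPM with WNK463 (SD, n = 3 each). The cytosolic folate transcripts went from 253 ± 7.06 to 119.9 ± 2.10 TPM, and the mitochondrial ones from 508 ± 7.35 to 611 ± 5.70 TPM. The mitochondrial genes thus made up 66.4 to 67.0% of the folate enzyme transcripts in Control and 83.4 to 83.9% with WNK463. Within the mitochondrial arm, *MTHFD2* accounted for 33.0 ± 1.00% in Control and 46.7 ± 1.42% with WNK463. These sums are descriptions without a test. TPM carries no TMM factor, so the differences in the sums between groups depend on the scaling. *MTHFD1L*, for example, had 69.2 TPM in Control and 71.4 TPM with WNK463, but a log2 fold change of -0.12 with TMM. The shares within a sample do not depend on it.

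**Figure D3:**
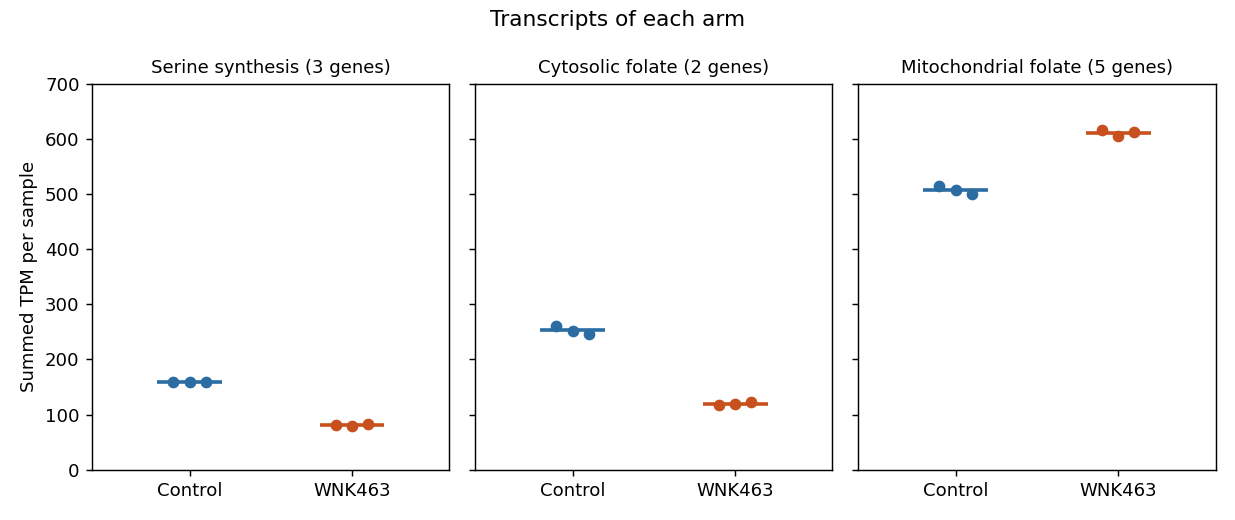
Each point is the summed TPM, without TMM scaling, of an arm's genes in a single sample, and bars are means of the 3 samples in a group. The serine synthesis and cytosolic sums are lower in all WNK463 samples, and the mitochondrial sum is higher, at 605 to 616 TPM against 500.3 to 515 TPM in Control.

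Pairs of enzymes that do the same step in either compartment were compared by their TPM ratio within each sample. *SHMT2* exceeded *SHMT1* by 6.27, 5.79 and 6.42 times in Control and by 12.1, 10.6 and 12.2 times with WNK463, a difference of 0.91 on the log2 scale. The ratio of *MTHFD2* to *MTHFD1* was 0.754, 0.824 and 0.814 in Control and 2.95, 2.98 and 2.74 with WNK463, so that the more abundant transcript changed from the cytosolic to the mitochondrial gene, with a log2 difference of 1.86. The ratio of *MTHFD1L* to *MTHFD1* rose from 0.332, 0.353 and 0.302 to 0.753, 0.733 and 0.685, a log2 difference of 1.14. The ratio of *PHGDH* to *SHMT2*, an enzyme that makes serine against one that uses it, differed by -1.79 on the log2 scale. In each of the 5 ratios the groups did not overlap and the exact two-sided permutation test gave p = 0.10, adjusted p = 0.10.

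**Figure D4:**
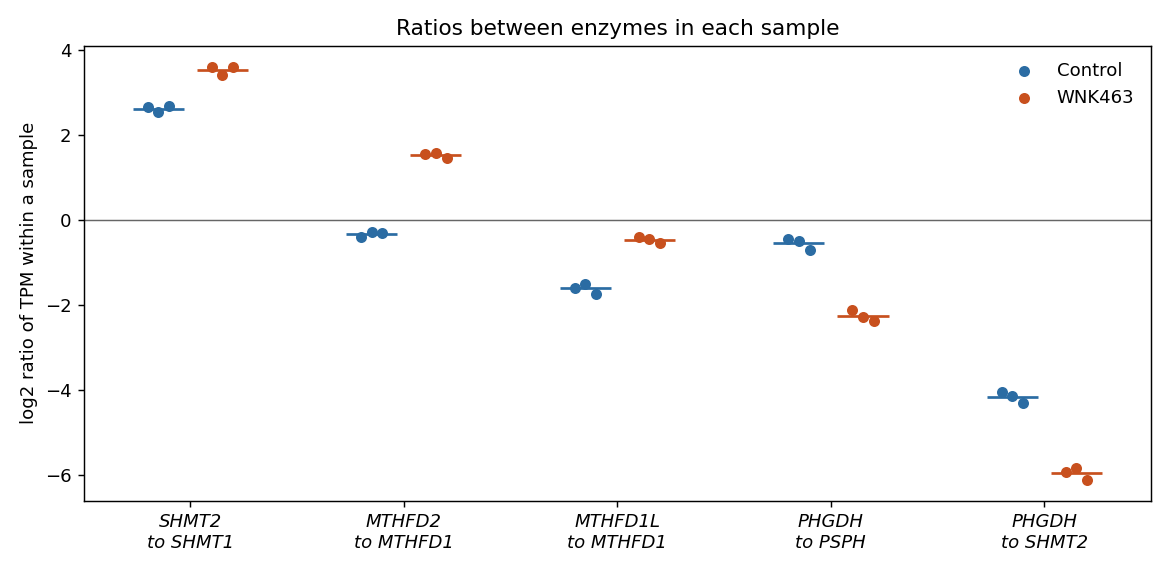
Points show the log2 TPM ratio of a pair of genes in each sample (Control blue, WNK463 orange), bars the mean of 3 samples, and the line at 0 marks equal levels. The ratios of mitochondrial to cytosolic enzymes are higher in every WNK463 sample, and those of *PHGDH* are lower.

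Reads of neighbouring genes could enter some of these values, since the sources used here do not say whether the counting used strand. Exons of *SHMT1*, *MTHFD1*, *SHMT2*, *MTHFD2* and *ALDH1L2* overlap those of a gene on the opposite strand that is also in the table. The partners *ZBTB25*, *NDUFA4L2*, *SLC4A5* and *AC006030.1* had 13.2 CPM or less on average in both groups. *SMCR8*, which shares 196 exon bases with *SHMT1*, had 155 CPM in Control and 142 CPM with WNK463. *C12orf45*, which shares 145 exon bases with *ALDH1L2*, had 21.4 CPM in Control and 18.1 CPM with WNK463. Named processed or duplicated copies exist for *MTHFD2* (7), *PSAT1* (4), *PSPH*, *SHMT1* and *MTHFD1* (1 each), and 0 of them are rows of the table, so how their reads were assigned is not given. These members are uncertain to that extent.

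The wider pathway was read from 61 genes in 6 lists, of which 49 were tested, with 21 lower and 18 higher. This is 21 of 49 lower beside 35.3% of all tested genes and 18 of 49 higher beside 35.5%. With total counts 18 were lower and 22 higher, beside 26.1% and 46.1% of all tested genes. With limma on log2(TPM + 1) 15 were lower and 20 higher, and the shares of all genes in that setting were not computed.

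Of the 10 tested genes that reduce folate or use it in synthesis, 5 were lower and 1 higher, with a median of -0.32. Of all tested genes, 35.3% were lower and 35.5% higher. With total counts 3 of the 10 were higher, beside 46.1% of all tested genes, as *MTR* and *MTRR*, which remake methionine, also passed. *TYMS*, thymidylate synthase, fell from 156 ± 1.48 to 58.0 ± 2.84 CPM (log2 fold change -1.43, adjusted p = 2.3e-13 from edgeR). The purine synthesis enzyme *ATIC* fell by 0.60 on the log2 scale (adjusted p = 7.9e-09 from edgeR).

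Among folate transport and retention genes, 3 of 5 tested were lower and 2 higher, beside 35.3% and 35.5% of all tested genes. The median of this list was -0.17. *SLC19A1*, the reduced folate carrier, went from 80.4 ± 3.52 to 47.5 ± 1.29 CPM (log2 fold change -0.76) and *FPGS*, which retains folates in the cell by adding glutamates, from 72.6 ± 3.97 to 43.8 ± 1.91 CPM (-0.73). *SLC25A32*, the mitochondrial folate carrier, had -0.17, which did not pass with total counts (-0.02, adjusted p = 0.79). *FOLR2*, a folate receptor of macrophages, was scarce and rose from 0.82 ± 0.0839 to 2.32 ± 0.433 CPM (1.48), and *GGH*, which removes glutamates from folates, rose by 0.27. *FOLR1* and *FOLR3* had no counts in any of the 6 samples.

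Of the genes for serine transport and use, 6 of 12 tested were lower and 3 higher, beside 35.3% and 35.5% of all tested genes. Their median was -0.10. Setting *SDS* to the lower limit given below could not move this median, as *SDS* stayed the highest value. The largest fall was that of *SFXN1*, the mitochondrial serine transporter, which had 121 ± 5.15 CPM in Control and 27.4 ± 1.90 CPM with WNK463 (log2 fold change -2.14, SE 0.07, adjusted p = 1.8e-14 from edgeR). Its relative *SFXN2* fell from 20.7 ± 1.61 to 8.35 ± 0.265 CPM (-1.31). *SLC1A5*, a neutral amino acid transporter best known for glutamine, had -0.76, and *PTDSS1*, which makes phosphatidylserine, had -0.30. Among the higher genes, *SPTLC1*, a subunit of serine palmitoyltransferase, had 0.33 and *SRR*, serine racemase, had 0.42 with overlapping groups. *SDS*, serine dehydratase, had 5 counts over the 3 Control samples and 86 over the WNK463 samples, a ratio of 16.5 with an exact 95% counting interval of 6.80 to 52.1, which covers counting error only.

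In the glycine cleavage system, 1 of 3 tested genes was lower and 2 were higher, beside 35.3% and 35.5% of all tested genes. The median of these 3 was 0.23. *GCSH* had a log2 fold change of -0.48, *DLD*, which other mitochondrial complexes share, had 0.23, and *AMT* rose from 0.932 ± 0.345 to 2.92 ± 0.428 CPM (1.64). *AMT* was scarce, with 9 to 20 counts per Control sample. *GLDC*, the decarboxylase of this system, had no counts in the 6 samples. In the methionine cycle and transsulfuration, 3 of 5 were lower and 2 higher, beside the same shares, with a median of -0.25. *CBS*, which joins serine to homocysteine, fell from 5.22 ± 0.494 to 0.757 ± 0.279 CPM (-2.79, SE 0.28, adjusted p = 8.5e-08 from edgeR). It was left with 8 to 16 counts per WNK463 sample. *AHCY* and *MAT2A* had -0.36 and -0.25, and *MAT2A* did not pass with total counts (-0.09, adjusted p = 0.062). *CTH*, the next enzyme after *CBS*, had 0.59 and *MAT2B* had 0.36.

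The list of *ATF4* and other genes it is known to control had 8 of 14 tested genes higher, 3 lower and a median of 0.25, where 35.5% of all tested genes were higher and 35.3% lower. With total counts *ASNS* also passed as higher (0.32, adjusted p = 0.0043 from edgeR), and the share of all genes that were higher was 46.1%. *ATF4* itself had 179.5 ± 6.89 CPM in Control and 202 ± 7.26 CPM with WNK463 (log2 fold change 0.17, SE 0.05, adjusted p = 0.0060 from edgeR). *SLC7A11*, the cystine transporter, rose from 5.62 ± 0.309 to 17.1 ± 1.33 CPM (1.603), and *ATF3*, *DDIT3* and *TRIB3* had 0.75, 0.72 and 0.61. The lower genes were *DDIT4* (-0.83), *SLC7A5* (-0.75) and *ATF5* (-0.58). The counts of this list include *ATF4* itself but leave out the members named above as ATF4 targets. Of those members, *PHGDH*, *PSAT1* and *ALDH1L2* were lower. *SHMT2* was lower by a small amount that did not pass with total counts, and *MTHFD2* was higher.

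**Figure D5:**
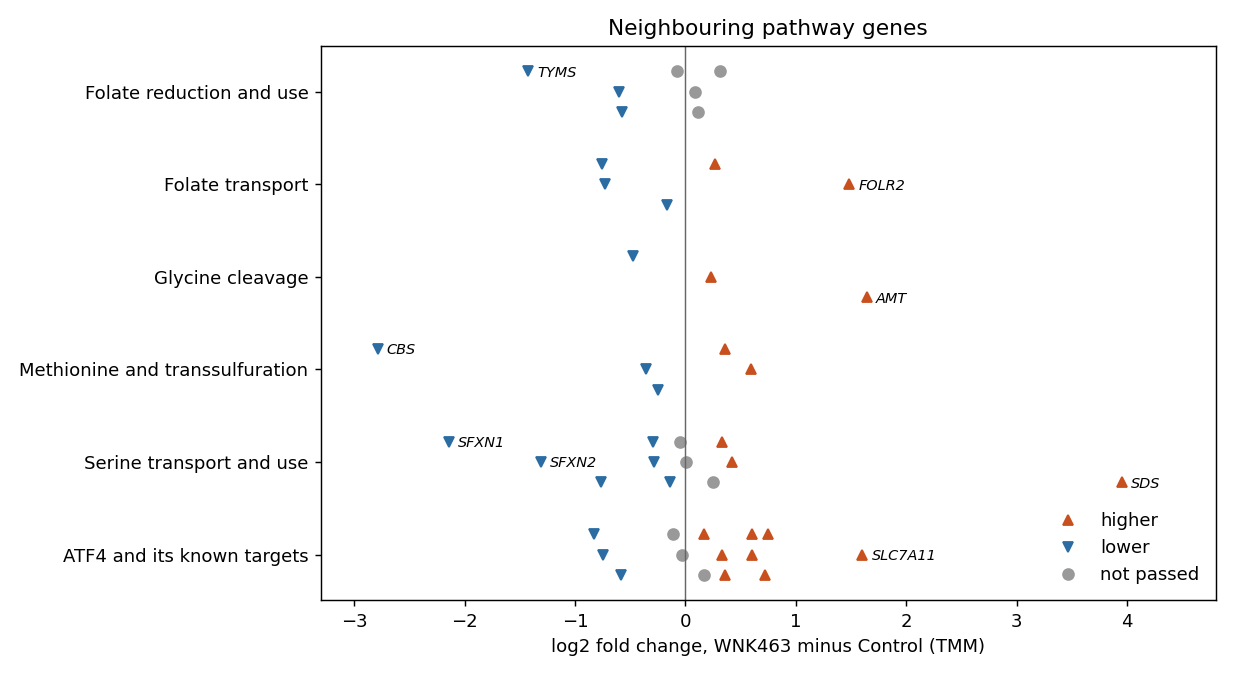
Each symbol is a tested gene of the wider pathway lists, of which 3 in the folate reduction list are not drawn, at its log2 fold change (WNK463 minus Control, TMM scaling), with triangles up for higher, triangles down for lower and grey circles for genes that did not pass. *CBS* and *SFXN1* are farthest to the left among the genes drawn. *SDS* is drawn at its fitted value of 3.95, but its Control samples had 3 counts or fewer each, so the size of its fold is uncertain.

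By the root mean square distance of log2(CPM + 1), centred on the Control mean, over the 6 samples, the genes most like *PHGDH* were *NFIX*, *HSPB1*, *UNG* and *PLCXD1*, at distances of 0.06 to 0.08. *PLCXD1* appeared under 2 identifiers with equal values. Those most like *MTHFD2* were *ASPH*, *ARSD*, *RAP1A*, *POC1B* and *TMEM30A*, at 0.02 to 0.03. Their log2 fold changes were -1.88 to -1.80 and 0.62 to 0.67. *PHGDH* itself had -2.06, and the 1 added to the CPM shrinks its change more than theirs. It had 3.46 CPM with WNK463, where the genes most like it had 5.60 to 30.5 CPM. With 2 groups of 3 samples the distance mostly reflects the size of the difference between the groups.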

How the data were processed

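MV4-11 RNA was captured on mRNA beads and sequenced on an Illumina instrument, with 3 Control and 3 WNK463 samples assigned by their titles. The submitters' processing notes list fastp, Bowtie2, HISAT2, StringTie, RSEM, DESeq2 and edgeR and the build GRCh38, without roles. The authors deposited estimated counts per gene as whole numbers, without normalization, and TPM values. Their group means, fold changes, p-values and adjusted p-values were not used.

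The counts were tested with edgeR 4.0.16 in R 4.3.3 with TMM factors, its default low-count filter and the quasi-likelihood test, adjusted by Benjamini-Hochberg over 11973 genes. The SE was taken as the size of the log2 fold change over the root of its F statistic. TMM factors were 0.944 to 0.951 in Control and 1.05 to 1.06 with WNK463, and the common dispersion corresponded to 5.21% variation between replicates. Replicates differed by more than sampling noise (chi-square per degree of freedom 2.68 to 7.40). Alternatives were DESeq2 1.42.0, other scalings and filters, a fold threshold, the replicate block, limma 3.58.1 on TPM, and each sample left out. The procedure was tested on simulated counts. The members and gene lists were chosen with earlier results of these data known, and motifs after the values were seen. All members were named, and from each wider list up to 4 passing genes per direction with the largest change, plus *ATF4*. Some genes of the folate reduction list that this rule names are not reported here, although they count in its totals.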

Additional observations from a re-analysis of the deposited data

How the results depend on the processing

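Of the 10 members, *PHGDH*, *PSAT1*, *SHMT1*, *MTHFD1*, *ALDH1L2*, *MTHFD2* and *MTHFD2L* kept their direction and passed under every alternative that kept the same threshold. Of 140 combinations of a member and an alternative, 129 kept direction and call, 6 no longer passed (*PSPH* and *SHMT2* with total counts and with limma on both TPM scales), 2 newly passed (*MTHFD1L*) and 3 changed sign. Those 3 were *MTHFD1L* with total counts (0.036), limma on log2(TPM + 1) (0.047) and limma on log2(TPM + 0.1) (0.048). With a log2 fold change of at least 1 also required, 5 members were lower and 1 higher, and 6 wider genes were lower and 4 higher. Of all tested genes, 5.55% were then lower and 9.62% higher. With each sample left out, 7 to 8 members were lower and 2 higher. Without a filter on low counts 8 were lower, with *MTHFD1L* added (adjusted p = 0.049). The 5 ratios kept their sign in all 8 alternatives each, but most of these could not have changed it. The groups did not overlap, so omitting a sample left the sign fixed, and the replicate block gives the same mean difference. Only CPM in place of TPM could have changed the sign. Same-numbered samples did not deviate together (correlations 0.01, 0.03 and -0.07), so a shared number was not read as pairing. Under the replicate block, 7 members were lower and 2 higher, as without it. The causes of these changes were not tested.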

Other observations

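The KEGG annotation in the deposited table gives lists that were not drawn up by hand. Of the 25 tested genes of glycine, serine and threonine metabolism, 15 were lower and 8 higher, beside 35.3% and 35.5% of all tested genes, with a median log2 fold change of -0.38. Of the 18 tested genes of the one carbon pool by folate, 9 were lower and 4 higher, beside the same shares, with a median of -0.14. Of the genes listed, 23 of 39 in the first and 1 of 20 in the second lie outside the lists counted above. The 23 include genes that were not tested, such as *AGXT2*, *DAO* and *MAOB*, and the outside share is smaller among the 25 tested. The first set is thus partly shared with those lists and the second almost wholly, so neither is fully separate evidence. Genes outside the other lists were named after their values were seen. *PGAM1*, the glycolytic mutase that interconverts the phosphoglycerate used by *PHGDH*, fell from 743 ± 41.6 to 455 ± 16.96 CPM (SD, n = 3 each, log2 fold change -0.71). *GAMT*, which makes creatine with a methyl group from the methionine cycle, had a log2 fold change of -1.38. *ALAS1*, which uses glycine for heme, rose from 90.5 ± 4.55 to 134.7 ± 6.23 CPM (0.57). The largest changes among the tested outside genes were those of *AOC2* (3.45) and *MAOA* (2.65), both higher. Both were scarce in Control, at 0.188 ± 0.102 and 0.361 ± 0.158 CPM.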
